A study of Mus musculus with 28 samples.

Results

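The 43 genes described here encode the proteins that license replication origins, copy DNA at the fork, supply deoxynucleotides and open S phase. They were taken as a list of names by function, and each gene was represented by its brightest probe over all arrays. All 43 were among the 19057 genes with a probe, and 39 of them were among the 11804 genes tested, those with a probe detected on 3 or more arrays (detection p under 0.05). Gmnn, which encodes the licensing inhibitor geminin, Pola1, the catalytic subunit of polymerase alpha, Prim1, a primase subunit, and Pole2, a polymerase epsilon subunit, fell below that limit and were not tested. Their probes were detected on 1, 0, 2 and at most 1 of the 28 arrays.

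RNA was hybridised to Illumina arrays from 28 mouse samples on the BALB/c background. The controls were 3 samples of normal splenic B cells, labelled BALB/c, at 90 days of age. The tumors bear the strain name C.iMyc/IL-6, in which Myc and IL-6 are both engineered. Of these, 14 were adoptive-transfer plasma cell tumors in oil granuloma tissue at 105 to 158 days, and 11 were spontaneous plasma cell tumors in lymph node tissue at 40 to 162 days. Both kinds were ground as whole tumors, so the tumor RNA can hold that of stroma and vessels, whereas the controls were B cells. The labels do not say what drives IL-6, whether the strain name of a transferred tumor refers to donor or host, or whether the samples came from separate animals, and the p-values then measure only the spread between these samples. Tumor kind and tissue cannot be told apart, and in bulk RNA a smaller share of replicating cells and less RNA per cell cannot be told apart either.

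In each cell cycle an origin is licensed in G1, when the origin recognition complex, CDC6 and CDT1 load the MCM2-7 helicase onto DNA. At the start of S phase, CDC45 and the GINS complex turn the loaded ring into a moving helicase, and polymerases alpha, delta and epsilon copy the strands with the sliding clamp PCNA, its loader RFC and the single-strand binding protein RPA. Splenic B cells are mostly quiescent, and E2F transcription factors, released from RB in late G1, drive many of the genes listed here. A probe level is a normalised log2 intensity, so a step of 1 is a doubling of the signal, and levels of different probes cannot be set against each other.

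Promoters are shown for 4 genes because the list contains many known E2F targets, and because the genes differed in how their RNA behaved. An E2F motif, searched as TTTCCCGC, TTTCGCGC, TTTGCCGC or TTTGGCGC on both strands, with overlapping matches counted once, was looked for in the RefSeq window from 250 bases before to 50 bases after each gene's start (GRCm38.p6). A window was available for 35 of the 43 genes, and 12 of them held a match (34.3%), as did 704 of all 27025 genes with a window (2.6%) and 1 of 17 mitosis genes (5.88%). Genes with a match were Orc1, Cdc6, Cdt1, Mcm3, Mcm5, Mcm6, Mcm7, Rfc3, Pola1, Pold1, Pole2 and Lig1. Mcm6 (chr1:128359656-128359955, minus strand) and Rfc3 (chr5:151651159-151651458, minus strand) had the most matches in the licensing and clamp groups with 2 each, Mcm6 being tied with Mcm3 and Mcm7 and shown for its larger fold change. No gene of the nucleotide group held one. Of the S phase entry group, E2f1 held none and Ccne2 had no window to search. Cdc6 (chr11:98907901-98908200, plus strand) and Pold1 (chr7:44548766-44549065, minus strand) were added after their values were seen, as the most raised and the most lowered gene of the list. Capitals mark the matches, each printed 5′ to 3′ on the gene's own strand.
Mcm6: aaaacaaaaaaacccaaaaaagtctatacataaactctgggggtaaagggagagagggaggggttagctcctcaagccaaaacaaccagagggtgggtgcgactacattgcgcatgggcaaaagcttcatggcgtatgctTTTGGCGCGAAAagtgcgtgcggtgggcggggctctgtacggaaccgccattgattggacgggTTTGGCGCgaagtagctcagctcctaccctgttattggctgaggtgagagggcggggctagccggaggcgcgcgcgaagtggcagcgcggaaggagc
Rfc3: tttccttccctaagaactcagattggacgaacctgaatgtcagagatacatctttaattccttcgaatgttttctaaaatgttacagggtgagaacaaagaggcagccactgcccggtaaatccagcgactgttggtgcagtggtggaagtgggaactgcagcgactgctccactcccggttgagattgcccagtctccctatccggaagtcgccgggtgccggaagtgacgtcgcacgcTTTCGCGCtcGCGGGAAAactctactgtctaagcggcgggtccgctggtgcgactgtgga
Cdc6: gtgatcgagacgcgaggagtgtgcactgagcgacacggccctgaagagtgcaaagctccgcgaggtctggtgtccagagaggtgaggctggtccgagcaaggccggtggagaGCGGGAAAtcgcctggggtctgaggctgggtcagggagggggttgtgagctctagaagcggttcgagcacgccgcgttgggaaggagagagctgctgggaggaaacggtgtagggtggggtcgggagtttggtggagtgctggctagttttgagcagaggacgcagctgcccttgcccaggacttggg
Pold1: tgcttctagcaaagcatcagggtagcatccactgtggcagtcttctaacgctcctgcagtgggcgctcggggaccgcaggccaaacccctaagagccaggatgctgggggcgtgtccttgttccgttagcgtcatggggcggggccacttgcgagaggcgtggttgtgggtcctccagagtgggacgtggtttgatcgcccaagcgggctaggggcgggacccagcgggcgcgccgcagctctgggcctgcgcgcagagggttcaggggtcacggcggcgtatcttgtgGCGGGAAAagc
In Mcm6 the matches begin 110 and 47 bases before the start, the first being a merged pair of opposite orientation, TTTGGCGCGAAA. The matches of Rfc3 begin 10 bases before the start and at the start itself, and that of Cdc6 begins 138 bases before it, while the match of Pold1 lies after the start. A match is a description of these letters and not a binding site. Among the 4 genes shown, Cdc6 and Mcm6 rose in the tumors, Pold1 fell and Rfc3 passed no test, as described below by role. Other motifs were spread differently, the CCAAT box (CCAAT) being in 62.9% of the windows of the listed genes, 82.4% of those of mitosis genes and 41.1% of all, and the E-box (CACGTG) in 17.1%, 5.88% and 8.09%. TTTGAA, the cell cycle homology region typical of mitosis genes, was in 11.4% of the listed genes' windows, 70.6% of those of mitosis genes and 20.2% of all, both strands being searched for each of these motifs.

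Between 11544 and 16866 probes were detected per array, with the fewest in adoptive-transfer tumors 1 and 5 (11544 and 13669). Across all genes, arrays of the normal samples correlated at 0.990 to 0.991, those of adoptive-transfer tumors at 0.752 to 0.984, and those of spontaneous tumors at 0.881 to 0.971. The tumors differed from the normal samples in cell type as well. All 6 tested mature B cell markers fell in both kinds of tumor, and 7 (adoptive-transfer) and 6 (spontaneous) of 9 plasma cell markers rose. Of these 9, Prdm1 and Jchain were detected on no normal array. Of all genes 19.8% and 18.5% were called higher and 16.7% and 17.9% lower. The macrophage and T cell counts below lie near or below those shares. Of 11 fibroblast markers 9 and 7 rose; 10 of the 11 were detected on no normal array, and their summed intensity ran from 283 to 300 there, 1126 to 20395 in adoptive-transfer tumors, against 4060 to 12411 in the spontaneous ones. Of 10 endothelium markers 5 and 8 rose and 1 fell in each kind, with sums of 662 to 852, 577 to 9967 and 3030 to 4611, and Cdh5, Tek, Tie1 and Emcn were detected on no normal array. Of 10 macrophage markers 1 and 2 rose and as many fell, with sums of 4707 to 6479, 4762 to 53893 and 5118 to 19286. Of 5 T cell markers 1 rose, in spontaneous tumors, and the sums of 3 erythroid markers were 3752 to 6976, 1597 to 54635 and 5465 to 33527. Exocrine pancreas markers rose in spontaneous tumors (10 of 12), in sums of 346 to 319431. Their mean log2 level was 11.1 to 14.6 in spontaneous tumors 2, 4, 5, 8, 10 and 11, and 4.82 to 5.27 in the other spontaneous tumors. Adoptive-transfer tumor 1 had a mean of 9.02. These arrays, tumor 1 included, are the ones left out below as arrays with pancreas transcripts. The part of these other cells in the values below was not tested.

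The first 2 comparisons asked how replication genes in each kind of tumor stood against normal B cells. Both comparisons use the same 3 normal samples, so their values are given side by side and do not bear each other out. In adoptive-transfer tumors 22 of the 39 tested genes rose and 2 fell at an adjusted p under 0.05 in limma, where 36.5% of all 11804 genes passed the test (19.8% higher, 16.7% lower). In spontaneous tumors 21 rose and 3 fell, where 36.4% of all genes passed (18.5% higher, 17.9% lower). The median log2 fold change of the 39 genes was 0.86 and 0.97, against 0.10 and 0.08 for all genes tested. An unadjusted p under 0.05 was reached by 26 and 28 of the 39 genes, against 44.1% and 44% of all genes. A called rise of at least 1 log2 unit was seen in 18 and 17 genes (14.5% and 13.9% of all genes), and one of at least 2 units in 8 and 9 genes (4.78% and 5.45%). Every adoptive-transfer tumor lay above every normal sample for 15 of the 39 genes (9.74% of all genes) and below for 2 (9.65%). Among spontaneous tumors this held for 26 genes above (20.2% of all genes) and 3 below (18.4%). With the arrays scaled to a common median in place of quantile normalization, the median of all genes moved to -0.08 and -0.07, and the counts were 16 higher and 4 lower, and 14 higher and 3 lower. The plot of fold changes by role shows that every one of the 4 helicase activation genes lay well to the right, whereas the clamp loader and polymerase genes lay on both sides of 0.

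**Figure D1:**
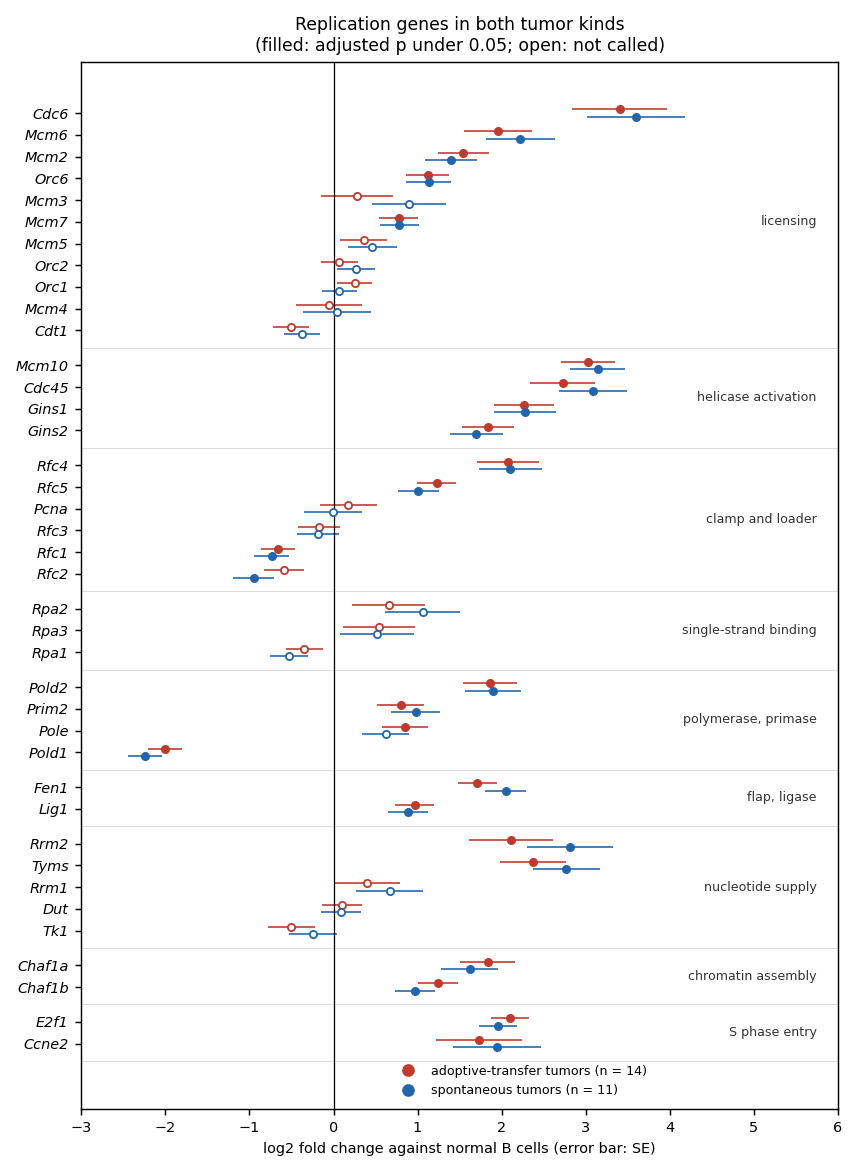
Log2 fold change of each of the 39 tested replication genes against normal B cells in adoptive-transfer tumors (red, n = 14) and spontaneous tumors (blue, n = 11), grouped by role, with the SE of the limma fit as bars; filled points passed an adjusted p under 0.05. Cdc6, Mcm10 and Cdc45 lay farthest to the right and Pold1 farthest to the left.

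Licensing genes were mixed. Cdc6, which brings the helicase to the origin, and the helicase subunits Mcm2, Mcm6 and Mcm7 and the origin subunit Orc6 rose in both kinds of tumor, and the other 6 of the 11 tested genes passed the test in neither. The levels of Cdc6 were 4.93, 5.17 and 4.58 in the normal samples, where the probe was detected on 1 of 3 arrays. They ran from 5.40 through a median of 8.79 to 9.64 in adoptive-transfer tumors, and from 7.97 through 8.32 to 9.35 in spontaneous tumors. All 25 tumors lay above the normal samples, though adoptive-transfer tumors 1 and 5 stood well below the others of their kind. Cdc6 rose by 3.40 ± 0.57 log2 units (SE, n = 14 and 3), or 10.6-fold, in adoptive-transfer tumors (limma adjusted p = 2.06e-05). In spontaneous tumors it rose by 3.60 ± 0.58, or 12.1-fold (n = 11 and 3, adjusted p = 1.34e-05). These values rest on its brightest probe. Another Cdc6 probe, detected on 6 arrays, differed by only 0.47 and 0.30, and further probes were detected on 0 and 2 arrays.

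The 6 subunits of the MCM2-7 ring, the motor of the replicative helicase, did not shift together. Mcm6 had levels of 6.91, 6.95 and 6.70 in the normal samples, 7.22 to 9.84 (median 8.89) in adoptive-transfer tumors, against 8.32 to 10.53 (median 8.92) in the spontaneous ones. No tumor overlapped the normal samples. It rose by 1.95 ± 0.40 and 2.22 ± 0.41 (adjusted p = 0.000292 and 8.46e-05), and a second Mcm6 probe detected on all 28 arrays differed by 1.69 and 1.92. For Mcm2 the levels were 7.29, 7.43 and 7.63, then 7.61 to 9.96 (median 9.02) and 8.25 to 9.59 (median 8.76). Adoptive-transfer tumor 5 alone reached down to the normal range, and Mcm2 rose by 1.55 ± 0.30 and 1.40 ± 0.31 (adjusted p = 0.000166 and 0.000694). The levels of Mcm7 were 7.04, 6.80 and 7.00, then 6.53 to 8.39 (median 7.66) and 7.52 to 7.99 (median 7.69). Tumor 5 lay below the normal samples and the other 24 tumors above them. Mcm7 rose by 0.78 ± 0.23 and 0.78 ± 0.24 (adjusted p = 0.0084 and 0.00921), and its second probe differed by 1.69 and 1.85. Without normal sample 2 the adjusted p of Mcm7 was 0.0597 and 0.0607.

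The remaining ring subunits passed no test in the main fit. With arrays weighted by their quality, Mcm3 and Mcm5 were called higher in both kinds of tumor and Mcm4 in neither. In that run 4105 and 3895 of all 11804 genes were called higher, against 2343 and 2185 in the main fit. Mcm4 had bright levels of 10.65, 10.45 and 10.60 in the normal samples, 8.15 to 11.65 (median 10.61) in adoptive-transfer tumors, against 10.20 to 11.22 (median 10.50) in the spontaneous ones, so the tumors lay on both sides of the normal range. Its difference was -0.06 ± 0.39 and 0.04 ± 0.40 (adjusted p = 0.932 and 0.955), and the sign turned when adoptive-transfer tumor 1 was left out (0.12). Mcm5 levels were 9.85, 10.02 and 9.95, then 8.82 to 10.94 (median 10.43) and 10.08 to 11.01 (median 10.25). All 11 spontaneous tumors and 11 of 14 adoptive-transfer tumors were above the normal samples, by a difference within the pooled spread (0.36 ± 0.28 and 0.46 ± 0.29, adjusted p = 0.353 and 0.231). Mcm3 levels were 6.69, 6.61 and 6.76, then 4.91 to 7.86 (median 7.18) and 6.99 to 8.77 (median 7.51). The same pattern held, with 11 adoptive-transfer tumors above the normal range and tumors 1, 2 and 5 below it. The difference of Mcm3 was 0.28 ± 0.43 and 0.90 ± 0.44 (adjusted p = 0.659 and 0.111). The second of these passed without adoptive-transfer tumor 5 (adjusted p = 0.044), and also with only spontaneous tumors and normal samples fitted.

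Among the other origin proteins, Orc6 rose by 1.12 ± 0.26 and 1.13 ± 0.27 (adjusted p = 0.001 and 0.00114), with levels of 7.93, 7.97 and 7.73 in the normal samples, 8.04 to 9.86 in adoptive-transfer tumors, against 8.51 to 9.82 in the spontaneous ones. No tumor overlapped the normal samples. Orc2 was near background, detected on 1 normal, 5 adoptive-transfer and 8 spontaneous arrays, and differed by 0.07 ± 0.22 and 0.26 ± 0.23. Orc1, the largest origin subunit, was detected on 4 adoptive-transfer arrays and on no array of the other groups, reaching 6.01 in adoptive-transfer tumor 9. Cdt1, the partner of CDC6 in helicase loading, pointed down: its levels were 10.27, 10.25 and 10.30 in the normal samples, 8.95 to 10.51 (median 9.83) and 9.46 to 10.17 (median 9.91) in the tumors. Every spontaneous tumor and 12 of 14 adoptive-transfer tumors were lower than the normal samples. Cdt1 still passed no test in the main fit (-0.51 ± 0.21 and -0.37 ± 0.22, adjusted p = 0.0606 and 0.189). Without adoptive-transfer tumor 9 or 14 the first adjusted p was 0.0349 or 0.0239. The second was 0.0407 with only spontaneous tumors and normal samples fitted.

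All 4 genes that start the helicase rose in both kinds of tumor, and all 25 tumors lay above the 3 normal samples for each of them. Mcm10, a factor needed to activate the loaded helicase, was at 6.00, 6.04 and 5.90 in the normal samples, 7.81 to 9.85 (median 9.10) in adoptive-transfer tumors, against 8.76 to 9.54 (median 9.05) in the spontaneous ones. The gap between the groups was wider than the range within any of them except adoptive-transfer tumors. Mcm10 rose by 3.03 ± 0.32 and 3.14 ± 0.32, or 8.16-fold and 8.83-fold (adjusted p = 1.17e-08 and 9.01e-09). A second Mcm10 probe, detected on 23 arrays, differed by 1.68 and 1.99. Cdc45, a subunit of the moving helicase, was at 5.54, 5.35 and 5.21, then at 6.40 to 8.98 (median 8.30) and 7.73 to 9.33 (median 8.39). It rose by 2.72 ± 0.39 and 3.09 ± 0.40 (adjusted p = 2.47e-06 and 5.02e-07). The GINS subunits Gins1 and Gins2 rose by 2.26 ± 0.36 and 2.28 ± 0.37, and by 1.84 ± 0.31 and 1.70 ± 0.32 (highest adjusted p of the pair 2.29e-05 and 8.81e-05). Gins2 was detected on 2 of 3 normal arrays, and both of its other probes also differed upward, by 1.48 and 1.85 and by 1.26 and 1.45. Of the remaining GINS genes, which are not on the list, Gins4 rose (1.17 ± 0.21 and 0.91 ± 0.21) and Gins3 passed no test (0.21 ± 0.29 and 0.34 ± 0.30).

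**Figure D2:**
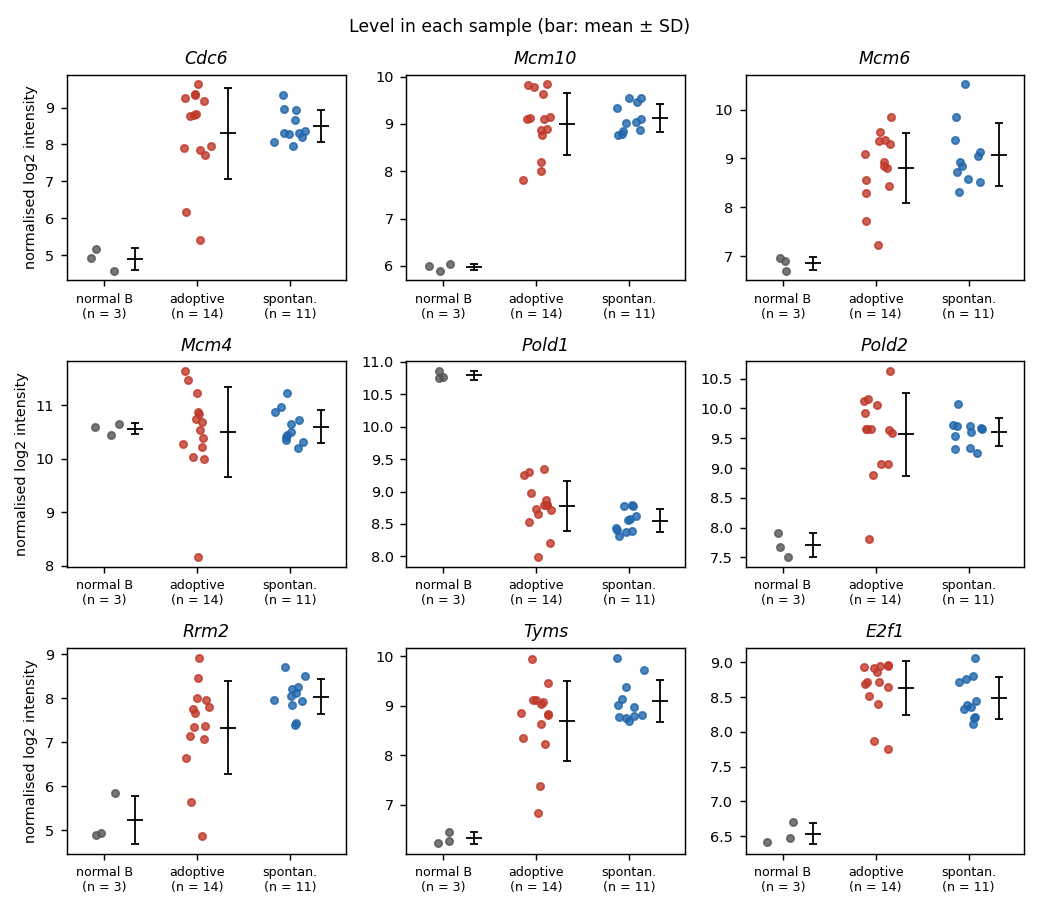
Normalised log2 intensity of 9 replication genes in each sample of normal B cells (grey, n = 3), adoptive-transfer tumors (red, n = 14) and spontaneous tumors (blue, n = 11), with the mean and SD of each group beside the points; each panel has its own axis, which does not start at 0. Mcm10, Cdc6 and E2f1 show no overlap between tumors and normal samples, Mcm4 lies on both sides of the normal samples, and Pold1 is lower in every tumor.

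The clamp and its loader did not move as a unit. RFC is a ring of 5 subunits that opens PCNA and places it on DNA, and of these Rfc4 and Rfc5 rose, Rfc1 fell in both kinds of tumor, Rfc2 fell in spontaneous tumors, and Rfc3 passed no test. Rfc4 had levels of 6.80, 7.33 and 7.13 in the normal samples, 7.35 to 10.26 (median 9.30) and 8.83 to 9.43 (median 9.24) in the tumors. Every tumor was above the normal range, tumor 5 by the least. Rfc4 rose by 2.08 ± 0.37 and 2.10 ± 0.38 (adjusted p = 4.48e-05 and 5.24e-05). Rfc5, at 7.00, 7.38 and 7.23 against 7.63 to 9.44 and 7.87 to 8.72, rose by 1.23 ± 0.23 and 1.01 ± 0.24 (adjusted p = 0.000123 and 0.00134). Other probes differed by less, an Rfc4 probe detected on 26 arrays by 0.85 and 0.82. For an Rfc5 probe detected on 4 arrays the values were 0.15 and 0.20.

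Rfc1, the large subunit, was at 9.18, 9.17 and 8.85 in the normal samples, 7.94 to 8.75 (median 8.38) in adoptive-transfer tumors, against 7.82 to 9.17 (median 8.30) in the spontaneous ones. Only spontaneous tumor 3 reached the normal range. Rfc1 fell (-0.66 ± 0.20 and -0.74 ± 0.21) (adjusted p = 0.0112 and 0.00608), and the first call was lost without normal sample 1 or 2 (adjusted p = 0.0675 and 0.0672). The levels of Rfc2 were 10.80, 10.85 and 10.93, then 9.71 to 11.39 (median 10.17) and 9.57 to 10.49 (median 9.87). Every spontaneous tumor and 12 of 14 adoptive-transfer tumors were lower than the normal samples, tumors 1 and 5 being the exceptions. Rfc2 fell by 0.95 ± 0.24 in spontaneous tumors (adjusted p = 0.00231). In adoptive-transfer tumors the difference was -0.59 ± 0.23 at an adjusted p of 0.05, just outside the threshold, and it passed without adoptive-transfer tumor 1, 5 or 9 (adjusted p = 0.00583, 0.0199 and 0.0471) or spontaneous tumor 3 (0.0437). The 3 other Rfc2 probes, all detected on 28 arrays, were lower in both kinds of tumor as well, by differences from -0.42 to -0.93.

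The probe of Pcna, the sliding clamp, was dim. It was detected on 2 of 3 normal, 9 of 14 adoptive-transfer and 6 of 11 spontaneous arrays, at 5.51, 5.16 and 5.27, then 4.57 to 6.67 (median 5.61) and 4.60 to 5.95 (median 5.42). The groups overlapped throughout, and the differences of 0.18 ± 0.34 and -0.01 ± 0.35 passed no test (adjusted p = 0.736 and 0.99). Rfc3 was also dim, with normal levels of 5.42, 5.69 and 5.94 and tumor levels from 4.87 to 6.34, and differed by -0.17 ± 0.25 and -0.18 ± 0.25 (adjusted p = 0.633 and 0.631).

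Of the 3 subunits of RPA, which coats single-stranded DNA at the fork, 0 passed the limma test in the main fit of either comparison. An unadjusted p under 0.05 was reached by 0 (adoptive-transfer) and 2 (spontaneous). The SDs of Rpa1, Rpa2 and Rpa3 were 0.39, 0.95 and 0.93 in adoptive-transfer tumors and 0.30, 0.30 and 0.32 in the spontaneous ones. With only spontaneous tumors and normal samples fitted, all 3 were called, Rpa1 lower and the others higher. That fit called 2926 of all genes higher and 2686 lower, against 2185 and 2116 in the main fit. Rpa1, the large subunit, was at 11.34, 11.16 and 11.28, then at 10.50 to 11.69 (median 10.73) and 10.31 to 11.24 (median 10.75). Most tumors were lower (11 of 14 and 10 of 11), with differences of -0.35 ± 0.22 and -0.53 ± 0.23 (adjusted p = 0.243 and 0.0689; the second was 0.0431 without spontaneous tumor 6 and 0.0478 without adoptive-transfer tumor 10). Rpa2 and Rpa3 leaned the other way. Rpa2 was at 7.13, 7.04 and 7.11, then at 5.56 to 8.97 (median 7.97) and 7.71 to 8.69 (median 8.27), a difference of 0.66 ± 0.43 and 1.06 ± 0.44 (adjusted p = 0.254 and 0.0617). All spontaneous tumors were above the normal samples, and the second adjusted p was 0.0167 and 0.0279 without adoptive-transfer tumor 1 or 5. The 3 probes of Rpa2 disagreed, one of the others differing by -0.32 and -0.50 and the third by 0.77 and 0.62. Rpa3 differed by 0.54 ± 0.43 and 0.52 ± 0.44 (adjusted p = 0.35 and 0.392).

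Polymerase subunits moved in both directions. Pold1, the catalytic subunit of polymerase delta, which copies the lagging strand, was the most lowered gene of the list, while Pold2, its first accessory subunit, rose. The normal samples had Pold1 levels of 10.74, 10.86 and 10.76, the adoptive-transfer tumors 7.98 to 9.34 (median 8.79) and the spontaneous tumors 8.31 to 8.79 (median 8.56). Every tumor was lower by more than 1 log2 unit, and the highest was adoptive-transfer tumor 5. Pold1 fell (-2.01 ± 0.20 and -2.24 ± 0.20), a 4.02-fold and 4.73-fold lower signal (adjusted p = 4.75e-09 and 9.25e-10). The levels of Pold2 were 7.68, 7.51 and 7.92, then 7.81 to 10.63 (median 9.66) and 9.26 to 10.08 (median 9.66). All tumors but tumor 5 were above the normal range, and Pold2 rose by 1.86 ± 0.32 and 1.90 ± 0.33 (adjusted p = 3.67e-05 and 3.99e-05). Each of these genes was read by a single probe.

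Prim2, the large primase subunit, rose by 0.80 ± 0.28 and 0.98 ± 0.29 (adjusted p = 0.027 and 0.00842), from 6.07, 6.19 and 6.55 to 5.80 to 7.78 (median 7.19) and 6.71 to 7.85 (median 7.15). Its second probe differed by 0.85 and 0.94. The adoptive-transfer call was lost without normal sample 1 or 2 (adjusted p = 0.134 and 0.105), and the spontaneous call without normal sample 1 (0.058). Pole, the catalytic subunit of the leading-strand polymerase epsilon, was at 5.34, 5.30 and 5.67, then at 5.30 to 7.24 (median 6.31) and 5.28 to 6.58 (median 6.17). Most tumors were above the normal samples (13 of 14 and 9 of 11). Pole rose in adoptive-transfer tumors (0.86 ± 0.28, adjusted p = 0.0148), but not without normal sample 1 or 2 (adjusted p = 0.0712 and 0.0793), and its difference in spontaneous tumors was 0.62 ± 0.28 (adjusted p = 0.0881, and 0.0454 without spontaneous tumor 4).

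**Figure D3:**
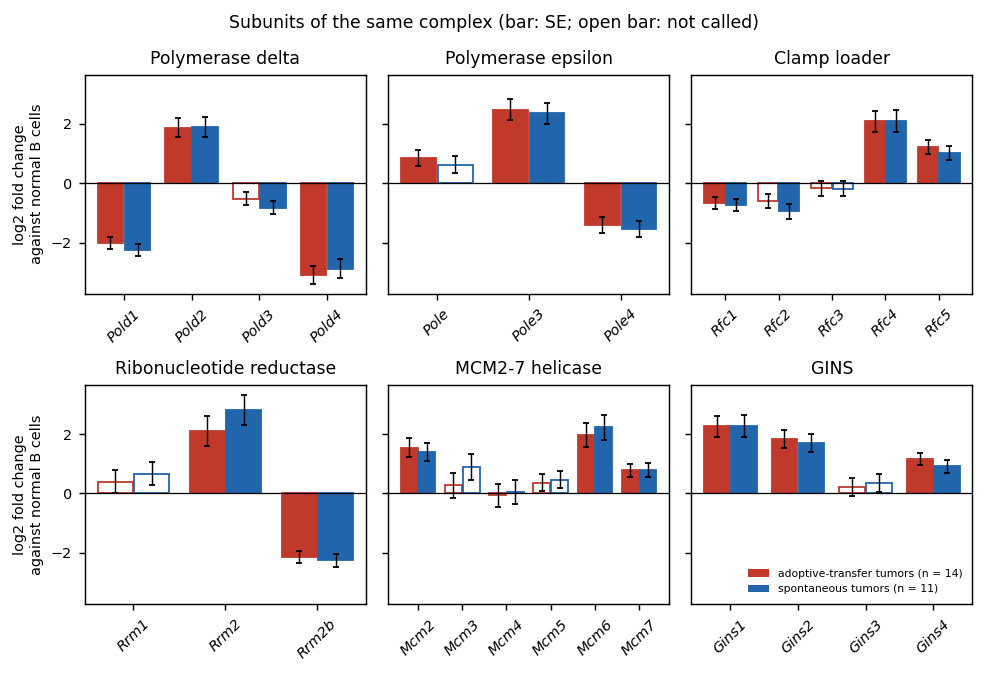
Log2 fold change against normal B cells of the subunits of 6 replication complexes, with members of the list and further subunits together, in adoptive-transfer tumors (red, n = 14) and spontaneous tumors (blue, n = 11); bars start at 0, whiskers are the SE, and open bars passed no test. Subunits of polymerase delta, polymerase epsilon, the clamp loader and ribonucleotide reductase lie on both sides of 0, from -3.08 for Pold4 to 2.81 for Rrm2.

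Both genes that finish the lagging strand rose. Fen1, the nuclease that trims the RNA-primed flap, was at 8.81, 8.51 and 8.84, then at 9.13 to 10.92 (median 10.54) and 10.18 to 11.20 (median 10.77). All 25 tumors were higher, and Fen1 rose by 1.71 ± 0.24 and 2.05 ± 0.24 (adjusted p = 1.33e-06 and 1.04e-07). Lig1, the ligase that seals the nick, was at 7.16, 7.30 and 7.16, then at 7.36 to 8.81 and 7.66 to 8.77. It rose by 0.97 ± 0.23 and 0.89 ± 0.24 (adjusted p = 0.00133 and 0.00358) with no overlap between the groups. The mean over the probes of Lig1, in place of its brightest, gave 0.47 and 0.44, neither called (adjusted p = 0.055 and 0.0809).

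Of the 5 genes that supply deoxynucleotides, Tyms and Rrm2 rose in both kinds of tumor and Rrm1, Tk1 and Dut passed no test in the main fit. Tyms, thymidylate synthase, was at 6.46, 6.23 and 6.27 in the normal samples, 6.84 to 9.95 (median 8.84) and 8.69 to 9.97 (median 8.98) in the tumors. No tumor overlapped the normal samples. Tyms rose by 2.37 ± 0.39 and 2.77 ± 0.40, or 5.18-fold and 6.83-fold (adjusted p = 1.75e-05 and 2.55e-06). Rrm2, the small subunit of ribonucleotide reductase whose level limits the enzyme in S phase, was at 4.92, 5.85 and 4.89, detected on 1 normal array, then at 4.87 to 8.92 (median 7.51) and 7.40 to 8.71 (median 8.04). Adoptive-transfer tumors 1 and 5 lay within or below the normal range and the other 23 tumors above it. Rrm2 rose by 2.11 ± 0.50 and 2.81 ± 0.51 (adjusted p = 0.00116 and 5.9e-05), and a second probe differed by 2.26 and 2.73.

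The large subunit of the same enzyme, Rrm1, was at 7.33, 7.56 and 7.55, then at 5.49 to 8.86 (median 8.05) and 7.81 to 8.55 (median 8.03). All spontaneous tumors and 12 adoptive-transfer tumors lay above the normal samples. The difference of 0.40 ± 0.39 and 0.67 ± 0.40 passed no test in the main fit (adjusted p = 0.456 and 0.202). The second passed without adoptive-transfer tumor 5 (adjusted p = 0.0404), and also with only spontaneous tumors and normal samples fitted. Tk1, thymidine kinase of the salvage pathway, leaned down: it was at 7.14, 7.16 and 7.34, then at 5.63 to 7.75 (median 6.80) and 6.24 to 7.50 (median 7.12). Its difference was -0.50 ± 0.28 and -0.25 ± 0.29 (adjusted p = 0.17 and 0.556). Dut, which removes dUTP, was at 5.66, 5.81 and 5.92 and at medians of 5.96 and 5.80, a difference of 0.10 ± 0.24 and 0.09 ± 0.24 (adjusted p = 0.782 and 0.823).

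Both tested subunits of CAF-1, which lays histones on newly copied DNA, rose. Chaf1a was at 5.50, 5.60 and 5.28, then at 5.99 to 8.04 (median 7.42) and 6.23 to 8.37 (median 7.09), and rose by 1.83 ± 0.33 and 1.62 ± 0.34 (adjusted p = 5.77e-05 and 0.000335). Chaf1b was at 6.17, 5.98 and 6.07, then at 6.62 to 8.06 and 6.46 to 7.59, and rose by 1.24 ± 0.24 and 0.97 ± 0.24 (adjusted p = 0.000113 and 0.00201). Neither gene overlapped between tumors and normal samples.

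E2f1, the transcription factor that opens the S phase program, and Ccne2, cyclin E2, the partner of CDK2 at the same step, rose in both kinds of tumor. The levels of E2f1 were 6.48, 6.42 and 6.71 in the normal samples, 7.75 to 8.96 (median 8.72) in adoptive-transfer tumors, against 8.11 to 9.07 (median 8.39) in the spontaneous ones. No tumor came within 1 log2 unit of the highest normal sample. E2f1 rose by 2.10 ± 0.22 and 1.96 ± 0.23, or 4.29-fold and 3.88-fold (adjusted p = 1.7e-08 and 8.93e-08). Ccne2 was detected on no normal array, on 11 of 14 adoptive-transfer arrays and on all 11 spontaneous arrays, with levels of 4.82, 4.83 and 4.76, then 4.44 to 7.64 (median 7.13) and 6.19 to 7.38 (median 6.59). Against the lowest detected signal of each normal array it was at least 2.66-fold and 3.08-fold higher, the fitted differences being 1.73 ± 0.51 and 1.94 ± 0.52 (adjusted p = 0.0083 and 0.00402). Adoptive-transfer tumor 5 lay below the normal samples and the other 24 tumors above them.

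Of the 24 called genes in each comparison, 16 and 15 kept their call under all 41 alternative settings, among them Cdc6, Mcm6, Mcm10, Cdc45, Gins1, Gins2, Rfc4, Pold1, Pold2, Fen1, Rrm2, Tyms, Chaf1a and E2f1, and no called gene turned direction. Median scaling ended the calls of Mcm2 (1.08 and 0.97, adjusted p = 0.0524 and 0.0942), Mcm7 (0.31 and 0.36), Orc6 (0.66 and 0.71), Lig1 (0.49 and 0.45) and Prim2 (0.40 and 0.60) in both kinds of tumor, that of Pole in adoptive-transfer tumors (0.59), and those of Chaf1b (0.59) and Rfc5 (0.58) in spontaneous tumors. With the level of Eif2s3y, a gene of the Y chromosome, as a covariate, Ccne2 (1.88, adjusted p = 0.113), Mcm7 (0.92, 0.0802), Pole (0.76, 0.254), Prim2 (0.96, 0.15) and Rfc1 (-0.59, 0.228) lost their calls in adoptive-transfer tumors.

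The last comparison set the kinds of tumor against each other. None of the 39 genes passed the limma test, where 2.73% of all genes did (1.37% with the adoptive-transfer kind higher and 1.36% with it lower), and 4 of 39 reached an unadjusted p under 0.05, as did 16.9% of all genes. The count was 0 under every alternative run. The 4 genes were Rfc2, higher in adoptive-transfer tumors by 0.36 ± 0.15 (adjusted p = 0.199), and Mcm3, Fen1 and Rrm2, whose differences of -0.62 ± 0.27, -0.34 ± 0.15 and -0.70 ± 0.31 put them lower there (adjusted p = 0.234, 0.248 and 0.248). For each of them the ranges of both kinds overlapped. The median difference over the 39 genes was -0.01. A p that misses the threshold does not show that the kinds were alike.

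The spread of replication genes between tumors of a kind is given as a description, with no test. The SD within adoptive-transfer tumors was above that within spontaneous tumors in 38 of the 39 genes, and in 30 of 39 without tumors 1 and 5. The median SD was 0.55 in adoptive-transfer tumors, 0.42 without tumors 1 and 5, 0.32 in spontaneous tumors and 0.13 in normal samples, against 0.50, 0.37, 0.32 and 0.15 over all genes tested. Cdc6 varied most in adoptive-transfer tumors (SD 1.25) and Mcm6 in spontaneous tumors (SD 0.64).

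The mean over the 39 genes placed each array on 1 scale. It was 7.10 to 7.12 in the normal samples, 7.08 to 8.60 (median 8.14) in adoptive-transfer tumors, against 7.88 to 8.61 (median 8.01) in the spontaneous ones. By this mean 1 tumor lay at the normal level, adoptive-transfer tumor 5 at 7.08. It had the lowest level of its kind in 21 of the 39 genes. In it 21 genes lay within or below the normal range, of which 6 were among the 22 called higher. Other genes stood above that range in it, among them Mcm10 (8.00, normal at most 6.04) and E2f1 (7.75, normal at most 6.71). Such counts were not made over all genes, so they do not set replication genes apart on that array. That array also had the lowest mean over mitosis genes of all tumors (6.62, against 7.57 to 9.01 in the others and 5.93 to 6.05 in normal samples), the lowest plasma cell marker mean (7.79) and the highest mature B cell marker mean (7.10). Within its kind it further had the highest T cell marker mean (8.96, median 6.29) and the highest erythroid marker mean (12.7, median 9.21). The part of these cells in its low replication level was not tested. Tumors 1 and 2 of the same kind came next, at 7.53 and 7.64. At the other end stood adoptive-transfer tumors 10 and 14 (8.60 and 8.55) and spontaneous tumor 3 (8.61), the youngest of its kind at 40 days, which had the highest level among spontaneous tumors in 22 of the 39 genes. Without tumors 1 and 5 the count in adoptive-transfer tumors was 26 higher and 3 lower, Mcm5, Rpa2, Rpa3 and Rrm1 being called higher and Rfc2 lower in addition. Over all 11804 genes the counts rose as well, from 2343 to 3022 higher and from 1968 to 2403 lower.

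**Figure D4:**
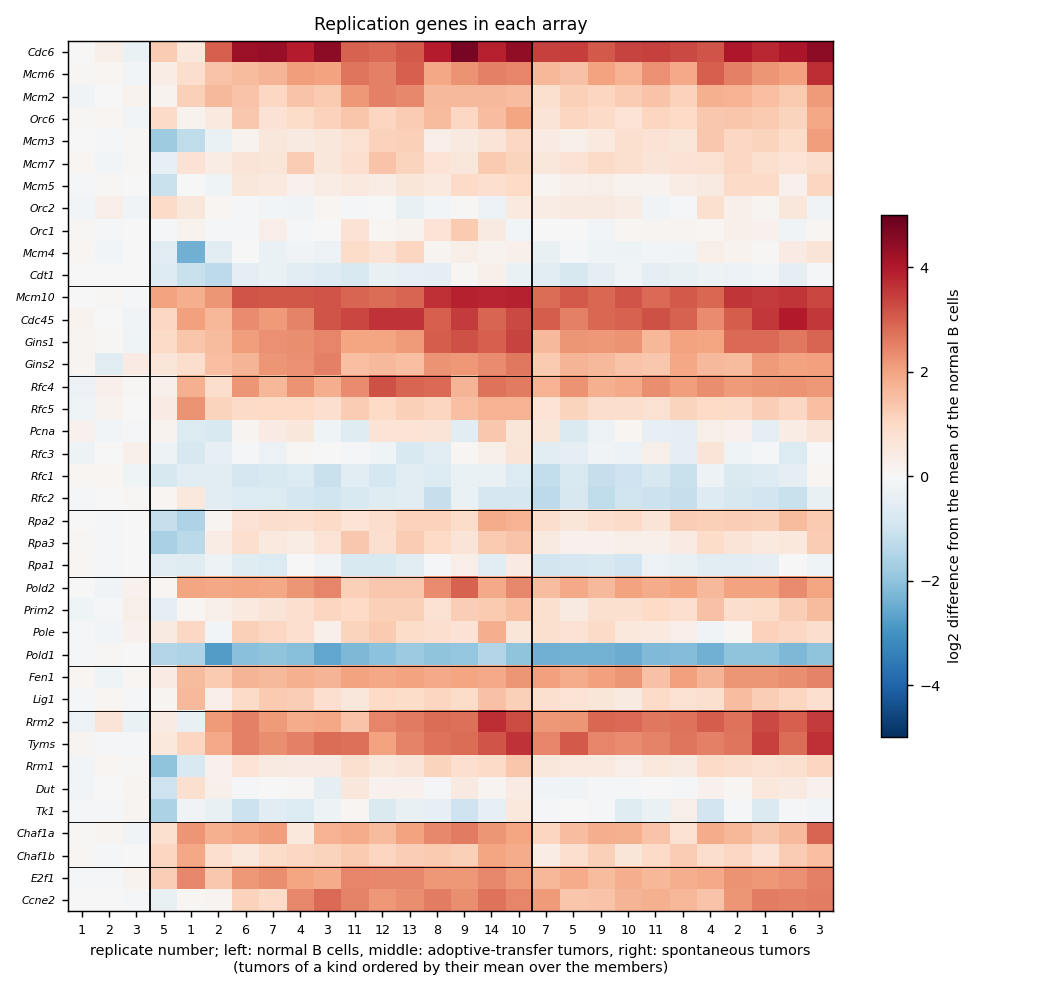
Difference of each of the 39 replication genes from its normal mean, in log2 units by the colour scale, in every array; rows follow the roles, black lines part the roles and the groups, and tumors of a kind are ordered by their mean over the 39 genes. Adoptive-transfer tumors 5, 1 and 2 are paler than the rest of their kind, and the Pold1 row is blue in every tumor.

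Mitosis genes, which act after S phase, also rose. Of 20 with a probe 15 were tested, and 12 rose in adoptive-transfer tumors and 13 in the spontaneous ones (19.8% and 18.5% of all genes). Their median was 2.37 and 2.63, and the replication median 0.86 and 0.97. Kif11, Tpx2, Cenpf and Ube2c were detected on no normal array, so they passed the filter only through the tumors. The counts and medians include them, so the medians do not rank mitosis genes against replication genes. In the plot of array means, adoptive-transfer tumor 5 lies lowest of the tumors on both axes, and adoptive-transfer tumors 10 and 14 and spontaneous tumor 3 lie highest on both.

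**Figure D5:**
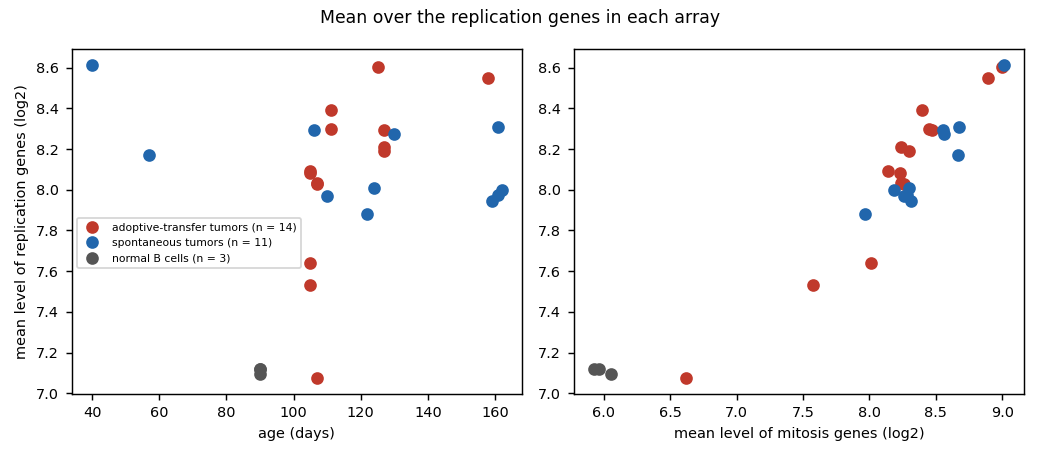
Mean normalised log2 intensity of the 39 replication genes in each array against age in days (left) and against the mean of 15 mitosis genes (right), for normal B cells (grey, n = 3), adoptive-transfer tumors (red, n = 14) and spontaneous tumors (blue, n = 11). The axes do not start at 0; spontaneous tumor 3, aged 40 days, is the highest point at 8.61.

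Within a kind of tumor, the levels of many replication genes varied together from array to array. Over the 741 pairs of genes the median Pearson r was 0.39 across the 14 adoptive-transfer tumors, 0.35 without tumors 1 and 5, and 0.45 across the 11 spontaneous tumors, against 0.00 for pairs of all genes. An r over 0.5 was found in 38.7% and 42.8% of pairs, against 10.9% and 8.10% of pairs of all genes. The 6 MCM2-7 genes had a median r of 0.77 and 0.73, and 0.55 in adoptive-transfer tumors without tumors 1 and 5. Orc2 stood apart, with a median r with the other genes of -0.50 and -0.18, as did Rfc2 in adoptive-transfer tumors (-0.48) and Tk1 in spontaneous tumors (-0.13). The points of each r share their arrays, so array quality and the share of tumor cells enter all of them, and their part was not tested.

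E2f1 was set against each of the other 38 genes within each kind of tumor, in 76 relations. In spontaneous tumors (n = 11) 16 relations passed by Pearson r at a permutation p adjusted over the 76, all positive, and 4 also by Spearman rho, and the median r was 0.68. The strongest was Cdc6 (r = 0.93, permutation p = 0.00019, adjusted 0.0105; rho = 0.79, permutation p = 0.00507, adjusted 0.059), followed by Mcm4 (r = 0.88, adjusted permutation p = 0.0105; rho = 0.89, adjusted 0.0155). Without the 2 tumors farthest from the median of E2f1, r was 0.82 for Cdc6 and 0.70 for Mcm4, all 16 stayed above 0.5, and the median over the 38 genes was 0.58. In adoptive-transfer tumors (n = 14) 7 relations passed by r and 1, that of Pole, by rho as well (r = 0.79, adjusted permutation p = 0.0105; rho = 0.85, adjusted 0.0148). The median r was 0.43, and 0.05 without the 2 farthest tumors, which were tumors 2 and 5 with E2f1 at 7.87 and 7.75. Of the 7 relations only Pole then kept an r over 0.5 (0.75). Leaving out the lowest E2f1 levels narrows the range of E2f1, which can by itself lower r. Without tumors 1 and 5 in their place, 6 relations passed by r and the median r was 0.42. Under median scaling 34 and 31 of the 38 relations passed, with a median r of 0.80 in both kinds. The share over all genes was not computed under that scaling, so these counts do not set replication genes apart. The shares that follow are for quantile normalization. Of all 11803 other genes, 1.94% in adoptive-transfer and 2.83% in spontaneous tumors had an r with E2f1 at or above the lowest r that passed (0.68 and 0.71), as did 7 and 17 of the 38 genes. Whether E2f1 relations in spontaneous tumors differ from those in adoptive-transfer tumors was not tested.

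Age was examined within each kind of tumor, as a slope per 10 days. With all tumors of a kind, no gene of the list and none of the 11804 genes was called in limma. Without adoptive-transfer tumor 14, aged 158 days, 22 of all genes were called with a rising slope and 19 with a falling one, none of them on the list. At an unadjusted p under 0.05 there were 14 of the 39 genes in adoptive-transfer tumors (9.27% of all genes) and 10 in spontaneous tumors (11.3% of all genes). The first count was 9 without adoptive-transfer tumor 2, and with median scaling the counts were 23 and 3. The slopes were positive in 35 of 39 genes among adoptive-transfer tumors, against 5 of 39 among spontaneous tumors. Their median was 0.16 and -0.03, against -0.005 and -0.0004 over all genes, whose positive slopes were not counted. Adoptive-transfer tumors 1, 2 and 5, the lowest of their kind by the mean over the 39 genes, were aged 105, 105 and 107 days. The spontaneous pattern rested on spontaneous tumor 3, without which 1 gene had an unadjusted p under 0.05 and 14 slopes were positive.

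Further genes of the pathway were read from a list of 84, of which 81 had a probe and 70 were tested. Of the 70, 4 were detected on no normal array (Recql4, Dtl, E2f7 and Atr), so they passed the filter only through the tumors. In adoptive-transfer tumors 25 rose and 8 fell, and in spontaneous tumors 26 rose and 9 fell, with a median of 0.23 and 0.34. Over all genes the shares called were 19.8% higher and 16.7% lower, and 18.5% higher and 17.9% lower, and the lower counts, like several of the counts by group that follow, lie near or below those shares. Among 33 further replication genes 12 and 14 rose and 4 and 4 fell. Top2a, the topoisomerase that untangles copied strands, rose by 2.72 ± 0.51 and 3.10 ± 0.53, the polymerase epsilon subunit Pole3 by 2.48 ± 0.35 and 2.35 ± 0.36, and the checkpoint mediator Clspn by 2.15 ± 0.33 and 2.49 ± 0.34. In the other direction, the smallest polymerase delta subunit Pold4 fell (-3.08 ± 0.31 and -2.88 ± 0.32), the polymerase epsilon subunit Pole4 (-1.40 ± 0.26 and -1.55 ± 0.27) and the origin subunit Orc3 (-0.79 ± 0.22 and -0.70 ± 0.23). Pold3 fell in spontaneous tumors by 0.82 ± 0.23 and differed by -0.52 ± 0.22 in adoptive-transfer tumors. Polymerase delta thus had 1 subunit called higher in each kind of tumor, with 2 called lower in the adoptive-transfer kind and 3 in the spontaneous kind.

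Among 10 further nucleotide genes, 5 and 4 rose and 2 and 3 fell. Dctpp1, which hydrolyses surplus dCTP, rose by 3.04 ± 0.36 and 2.64 ± 0.36, the one-carbon enzyme Shmt1 by 1.87 ± 0.56 and 2.02 ± 0.57, and the nucleoside diphosphate kinase Nme1 by 1.62 ± 0.27 and 1.26 ± 0.27. Tk2, the mitochondrial thymidine kinase, fell (-3.16 ± 0.54 and -3.45 ± 0.55), Rrm2b, the ribonucleotide reductase subunit of resting and damaged cells, also fell (-2.13 ± 0.21 and -2.26 ± 0.22), and Samhd1, which breaks down deoxynucleotides, fell by 1.29 ± 0.48 in spontaneous tumors (-1.08 ± 0.47 in adoptive-transfer tumors, adjusted p = 0.0719). The alternative small subunits of ribonucleotide reductase had opposite signs, Rrm2 higher and Rrm2b lower in both kinds of tumor.

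Of 10 further chromatin genes 3 rose in each comparison. Uhrf1, which takes part in copying DNA methylation to the new strand, rose by 1.85 ± 0.27 and 1.87 ± 0.28, and H2az1, a histone variant, by 1.30 ± 0.45 and 1.61 ± 0.46. The histone chaperone Nasp rose in adoptive-transfer tumors (0.93 ± 0.30) and differed by 0.69 ± 0.30 in spontaneous tumors, whereas Asf1b rose in spontaneous tumors (1.82 ± 0.52) and differed by 1.13 ± 0.50 in adoptive-transfer tumors. Of 17 further S phase entry genes 5 rose and 2 fell in each. Tfdp1, the dimer partner of E2F, rose by 2.27 ± 0.49 and 2.67 ± 0.50, E2f2 by 1.83 ± 0.29 and 1.72 ± 0.30, and Ccne1, cyclin E1, by 1.82 ± 0.48 and 1.90 ± 0.49. The retinoblastoma gene Rb1 fell by 1.00 ± 0.23 in adoptive-transfer tumors and fell by 0.99 ± 0.23 in spontaneous tumors, and E2f5, a repressor E2F, fell too (-0.82 ± 0.17 and -1.23 ± 0.17).

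Several of these calls rested on single samples. The adoptive-transfer call of H2az1 was lost without any 1 of the normal samples (adjusted p = 0.0526 to 0.0976), that of Nasp without normal sample 1 or 3 (0.0636 and 0.0576), and that of Shmt1 without normal sample 2 (0.0542). The spontaneous call of Samhd1 was lost without any 1 of them (0.0832 to 0.113), and that of Orc3 without normal sample 2 (0.0929). In adoptive-transfer tumors, Asf1b passed without tumor 1 or 5 (0.0116 and 0.0129), Pold3 without tumor 1, 5 or 9 (0.0126, 0.0383 and 0.0478), and Samhd1 without tumor 5 (7.4e-06). Nasp passed in spontaneous tumors without adoptive-transfer tumor 10 (0.0418) or spontaneous tumor 7 (0.0458). Between the kinds of tumor 3 of the 70 further genes were called, where 2.73% of all genes were, all higher in adoptive-transfer tumors: Chtf18 and Chtf8, subunits of an alternative clamp loader, by 0.66 ± 0.18 and 0.40 ± 0.11 (adjusted p = 0.0371 and 0.0442), and E2f5 by 0.40 ± 0.11 (adjusted p = 0.0353).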

How the data were processed

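Array intensities were deposited per probe for 28 samples, with a detection score per probe on each array that runs from 0 to 1 as a fraction, per the file headers. The authors' deposited log2 values of the same arrays served as an alternative. Partek is named, without version, in the submitters' processing notes. The arrays' number limits the precision.

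The intensities were background-corrected, quantile-normalized and log2-transformed with neqc in limma 3.58.1 (R 4.3.3, offset 16), detection p being 1 minus the score. Of 45281 probes, 34885 had 1 gene symbol, 18 several and 10378 none; the brightest probe stood for each gene, and 11804 genes detected (p under 0.05) on at least 3 arrays entered a single 3-group fit with Benjamini-Hochberg adjustment over all of them. Ages and the replicate number were fitted separately. Replicate numbers did not pair samples (correlations of deviations from -0.08 to 0.22, and 3 of 11 tumor pairs over 0.1), so no block was used. E2f1 relations used 100000 permutations (scipy 1.17.1, numpy 2.4.6, pandas 2.3.3, Python 3.11.15, and data.table, version 1.17.8). The fit was also run on simulated arrays, in which each gene had normal noise of the same SD in every group. That simulation could not test the unequal spread of the real groups. Promoters came from RefSeq (GRCm38.p6).

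Members and gene lists were chosen with earlier results of these data known. Genes named were, per role, those with the largest and smallest fold, all called lower, not called or not measured, Mcm2 to Mcm7, Pcna, E2f1, Ccne2, Rrm2 and Tyms; of further pathway lists, the 3 highest and 3 lowest called, and all called between tumor kinds. Alternatives changed background correction, scaling, filter (detection p under 0.01 on at least 11 arrays), probe choice, samples, weights and covariates. Listed pathway genes with no matching probe symbol were not analysed here.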

Additional observations from a re-analysis of the deposited data

Results flagged for a closer look

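Of the 70 further pathway genes, 3 differed between the kinds of tumor by limma's test of the difference itself, where 2.73% of all genes did, so the count lies near that share. Chtf18, a subunit of the alternative clamp loader, was higher in adoptive-transfer than in spontaneous tumors by 0.66 ± 0.18 log2 units (means 7.52 and 6.86, against 5.92 in normal B cells; adjusted p = 0.0371), with overlapping ranges of 6.95 to 8.61 and 6.19 to 7.88. Chtf8, of the same complex, differed by 0.40 ± 0.11 (means 7.41 and 7.02, normal 7.40; adjusted p = 0.0442). E2f5 differed by 0.40 ± 0.11 (means 6.98 and 6.57, normal 7.80; adjusted p = 0.0353). The calls were lost in 17, 27 and 14 of 41 alternative settings, leaving out any of several single tumors among them. Tumor kind and tissue cannot be told apart.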

How the results depend on the processing

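No called replication gene turned direction in any of 41 alternative settings. The count of replication genes lower in adoptive-transfer tumors (2) was 4 with no background correction, median scaling or the deposited values, 5 with array weights, 1 with Eif2s3y as a covariate, and 1 to 4 with 1 sample left out. In spontaneous tumors (3) it was 5 with only the 2 groups compared or array weights, 1 with the replicate block, and 3 to 4 with 1 sample left out. With only the 2 groups compared, 7 calls were gained in spontaneous tumors. These were Mcm3, Pole, Rpa2, Rpa3 and Rrm1 higher, and Cdt1 and Rpa1 lower. Array weights added the same genes and Mcm5. Over all genes, array weights gave 3895 higher and 3266 lower there, and the fit of only the 2 groups gave 2926 and 2686. With the replicate block, 19 and 21 genes were higher. Counts higher were 19 to 22 (main 22) and 20 to 24 (main 21) with 1 sample left out. Median scaling gave 1397 higher and 2794 lower of all genes in adoptive-transfer tumors (main 2343 and 1968) and 1344 and 2827 in spontaneous tumors (main 2185 and 2116). Of further pathway genes, the adoptive-transfer count higher (25) was 12 with median scaling, 14 with Eif2s3y and 20 to 30 with 1 sample left out; lower (8), 15 with median scaling, 14 with array weights, 13 without tumors 1 and 5, 5 with Eif2s3y and 7 to 13 with 1 left out (13 without tumor 5). In spontaneous tumors higher (26) was 14 with median scaling and 24 to 29 with 1 left out; lower (9), 17 with median scaling, 20 with array weights and 7 to 10. Between kinds (3), the count was 0 with median scaling, only the 2 groups, no arrays with pancreas transcripts, Eif2s3y or the replicate block, 7 with array weights or without tumors 1 and 5, and 0 to 6 with 1 left out. E2f1 relations (7 and 16) were 34 and 31 with median scaling, for which no share over all genes was computed. Signs turned only where the main fit made no call. In adoptive-transfer tumors Orc2 was -0.093 (median scaling), -0.035 (array weights), -0.048 (without tumors 1 and 5) and -0.025 to 0.23 with 1 sample left out; Mcm3 -0.075, Rrm1 -0.023 and Dut -0.22 (median scaling); Mcm4 0.12 (mean of probes), 0.16 (array weights), 0.18 (without tumors 1 and 5), 0.12 (without pancreas arrays) and 0.031 (Eif2s3y), and -0.14 to 0.12 with 1 left out. With the replicate block Pcna was -0.21. Chtf8 was -0.48 (median scaling), -0.32 (mean of probes), -0.00165 (array weights), -0.023 (without pancreas arrays), -0.089 (age) and -0.16 (Eif2s3y), and -0.029 to 0.043 with 1 left out. In spontaneous tumors Mcm4 was -0.16 (median scaling), -0.023 (array weights), -0.25 (replicate block) and -0.022 to 0.081 with 1 left out, Dut -0.21 (median scaling), and Pcna 0.17 (without pancreas arrays), 0.0055 (age), 0.10 (Eif2s3y) and -0.086 to 0.092 with 1 left out. The cause was not tested. Probes near background, such as Pcna, Orc1 and Orc2, limit what can be seen.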

Other observations

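Pold1 lies on chromosome 7, and the nearer edge of the annotated Spib gene, which encodes a B cell transcription factor, is 656 bases from it (GRCm38.p6). The Spib probe was lower in the tumors by more than the Pold1 probe, its signal being 12.5-fold and 12.8-fold lower (log2 differences of -3.64 ± 0.22 and -3.68 ± 0.23). Spib was detected on 3 of 3 normal, 4 of 14 adoptive-transfer and 3 of 11 spontaneous arrays. Farther neighbours were lower as well, Napsa at 23629 bases by log2 differences of -4.56 ± 0.68 and -4.88 ± 0.69. Mybpc2, at 8028 bases, differed by -0.84 ± 0.15 and -0.94 ± 0.16 but was detected on no tumor array. Against the lowest detected signal of each tumor array its difference was -0.45 and -0.49. Of all genes 16.7% and 17.9% were called lower. Whether the position of these genes bears on their levels was not tested. Nr1h2, at 800 bases, was not tested. Whether the Pold1 probe also reads Spib transcripts was not tested.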
